A study of Homo sapiens with 6 samples.

Results

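The genes considered are 10 writers, maintenance factors and readers of DNA methylation, taken as a list of gene symbols. The list names genes and uses no threshold on a measured value, but it was drawn up with earlier results of these data known. They are DNMT1, DNMT3A, DNMT3B, DNMT3L, UHRF1, UHRF2, HELLS, MBD1, MBD2 and ZBTB33, and all 10 were measured among 18417 named genes. Together they had 11 probe sets annotated to exactly 1 symbol, since UHRF1 had a second one and the other members had 1 each. Expression was measured on 6 Affymetrix whole-transcript arrays of HCT116, a human colorectal carcinoma line long established in culture. The mutant group holds 3 arrays of a derived HCT116 line labelled as a mutant with altered DNA methylation, and the parental group holds 3 arrays of the parental line. Both lines were grown in McCoy's 5A medium with serum and antibiotics. The labels name neither the mutated gene nor a number of clones, so the mutation and other differences between the lines cannot be told apart, and the levels below do not check the identity of the mutant.

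DNA methylation is the addition of a methyl group to cytosine, in mammals mostly at CpG dinucleotides. DNMT3A and DNMT3B set new methyl groups, helped in germ cells by the inactive relative DNMT3L. DNMT1 copies the pattern onto the daughter strand after replication, guided by UHRF1, which binds hemimethylated CpG, while the chromatin remodeller HELLS opens nucleosomal DNA to the enzymes. MBD1, MBD2 and ZBTB33, also called Kaiso, bind methylated DNA and recruit corepressors. HCT116 cells are widely used to study the division of labour between DNMT1 and DNMT3B.

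Across the members, ZBTB33 rose and DNMT3B and UHRF1 fell, while 7 did not pass the test. That is 30% of the members, beside 25.9% of all genes (14.6% higher and 11.3% lower) called at an adjusted p under 0.05, 36.5% of the genes with a mean log2 value of at least 7 and 9.52% of those under 7. The share of members called was near this background, so the count itself is no result about the members. The members lay on both sides of zero, 5 above and 5 below, with a median difference of -0.01 on the log2 scale, against 0.0034 over all genes. Mutant and parental arrays did not overlap for 7 of the 10 members, namely ZBTB33, DNMT3B, UHRF1, DNMT1, DNMT3A, HELLS and MBD2, and for 45.8% of all genes. The differences ran from -0.39 for DNMT3B to 0.54 for ZBTB33, so no member reached a 1.5-fold change, a size that 5.21% of all probe sets reached together with a call.

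**Figure D1:**
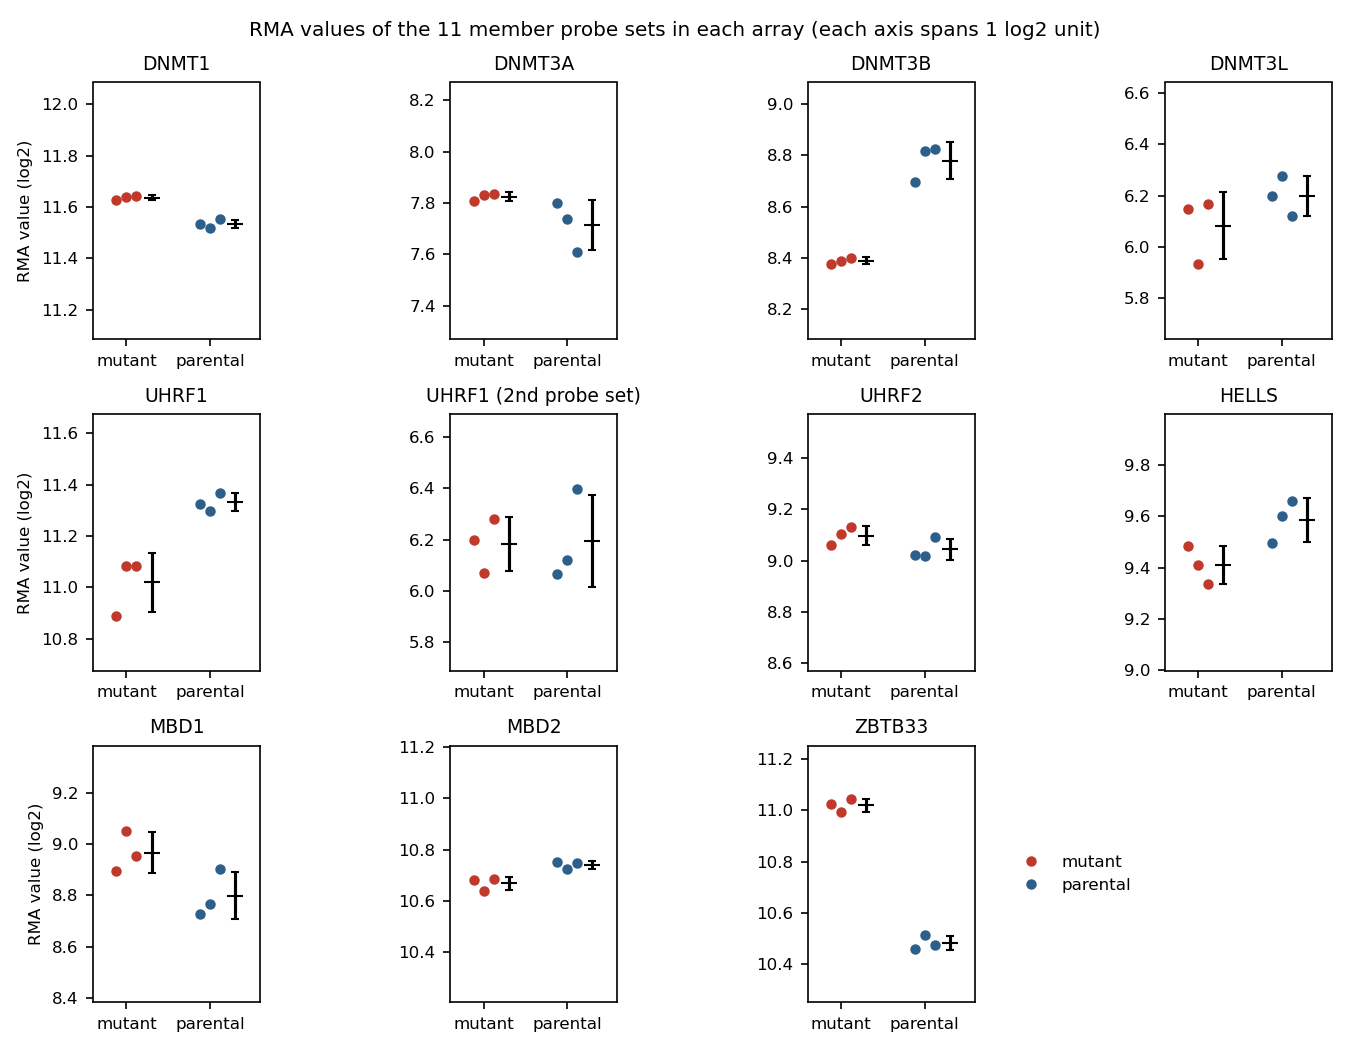
RMA values (log2) of the 11 member probe sets in each array, with mutant arrays at the left of each panel in red and parental arrays at the right in blue. Black bars give the mean and SD of 3 arrays, and every axis spans the same range of 1 log2 unit, so that the gap of 0.54 for ZBTB33 and that of -0.39 for DNMT3B can be compared by eye with the overlapping values of UHRF2 and DNMT3L.

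Among the writers, DNMT3B, a de novo methyltransferase (probe set 8061746, chromosome 20), fell. Its log2 values were 8.38, 8.39 and 8.40 in mutant arrays, against 8.70, 8.82 and 8.83 in parental arrays. Every mutant array lay below every parental array, and the mutant arrays differed by less among themselves than the parental ones. The means were 8.39 ± 0.01 in mutant and 8.78 ± 0.07 in parental arrays (SD, n = 3 each). The difference of -0.39 (SE 0.05, 95% interval -0.52 to -0.26, adjusted p = 0.00493, limma) makes the parental level 1.31-fold the mutant level. A difference of this size or more in either direction was found in 12.9% of all probe sets. The call held when any 1 array was left out, with an adjusted p of 0.00752 to 0.0267. It was lost when the test itself required a fold of 1.2 (adjusted p = 0.328), as was that of UHRF1.

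DNMT3A, the other de novo enzyme (probe set 8050813, chromosome 2), did not pass the test. It had log2 values of 7.81, 7.83 and 7.84 in mutant arrays and 7.80, 7.74 and 7.61 in parental arrays. The groups did not overlap, but the lowest mutant and the highest parental array were only 0.01 apart. The difference of 0.11 had a 95% interval from -0.04 to 0.26 (adjusted p = 0.316), which leaves out a change of the size and direction of that of DNMT3B. The value rests in part on parental replicate 3, without which it was 0.06 (adjusted p = 0.580). The difference between the 2 genes' responses was not itself tested.

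DNMT1, the maintenance methyltransferase (probe set 8033912, chromosome 19), was steady within each group. Its log2 values were 11.63, 11.64 and 11.64 in mutant arrays, against 11.53, 11.52 and 11.55 in parental arrays. The mutant arrays all lay above the parental arrays, with an SD of 0.01 in mutant and 0.02 in parental arrays (n = 3 each). The difference of 0.10 corresponds to a 1.07-fold higher level in the mutant, and with an SE of 0.04 it did not pass (95% interval -0.0032 to 0.21, adjusted p = 0.181). Whether it passes depends on the variance model. With an intensity trend in the variance the adjusted p was 0.0358, and with an ordinary linear model, which uses only the small spread of this probe set itself, it was 0.0118. A difference as large as that of DNMT1 was found in 55.2% of all probe sets.

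DNMT3L, the catalytically inactive cofactor of the de novo enzymes (probe set 8070730, chromosome 21), had log2 values of 6.15, 5.93 and 6.17 in mutant arrays and 6.20, 6.28 and 6.12 in parental arrays. These values lie below the median of every array, in the range where RMA compresses differences, and the groups overlapped. The difference was -0.12 (95% interval -0.32 to 0.09, adjusted p = 0.439). Without mutant replicate 2 it was -0.04, and without parental replicate 2 it was -0.08.

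Of the maintenance factors, UHRF1, which brings DNMT1 to newly replicated DNA, was lower in the mutant on its main probe set (8024900, chromosome 19). Its log2 values were 10.89, 11.08 and 11.09 in mutant arrays and 11.32, 11.30 and 11.37 in parental arrays. All mutant arrays were below all parental arrays, and mutant replicate 1 was the lowest of the 6. The difference was -0.31 (SE 0.07, 95% interval -0.48 to -0.14, adjusted p = 0.0274). Of 18 alternatives 8 ended this call, among them 4 of the 6 fits that leave out 1 array, which together gave adjusted p-values of 0.0475 to 0.0860. Without mutant replicate 1 the difference was -0.25 (adjusted p = 0.0475), without mutant replicate 2 it was -0.34 (0.0549), and without parental replicates 1, 2 and 3 the adjusted p-values were 0.0756, 0.0728 and 0.0860. The second UHRF1 probe set (8032922) had 6.20, 6.07 and 6.28 in mutant arrays, against 6.06, 6.12 and 6.40 in parental arrays, where the groups overlapped (difference -0.01, 95% interval -0.27 to 0.25, adjusted p = 0.959). Values of this second probe set lie below the median of every array, in the range where RMA compresses differences. The mean of both UHRF1 probe sets gave -0.16 (adjusted p = 0.119). It weighs the dim probe set as much as the main one, so it is no separate test of the main one.

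HELLS, the remodeller (probe set 7929438, chromosome 10), had log2 values of 9.49, 9.41 and 9.33 in mutant arrays and 9.49, 9.60 and 9.66 in parental arrays. The groups did not overlap, yet the highest mutant and the lowest parental array agree to 2 decimals. The difference was -0.18 (SE 0.07, 95% interval -0.34 to -0.01), with an adjusted p of 0.144, and of 0.0488 when only probe sets with a mean of at least 7 were tested. UHRF2, the paralog of UHRF1 (probe set 8154316, chromosome 9), had 9.06, 9.10 and 9.13 in mutant arrays and 9.02, 9.02 and 9.09 in parental arrays. Its groups overlapped, and the difference of 0.05 (95% interval -0.07 to 0.18) did not pass (adjusted p = 0.558). The interval of UHRF2 does not reach the -0.31 of UHRF1, though the difference between these paralogs was not tested.

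**Figure D2:**
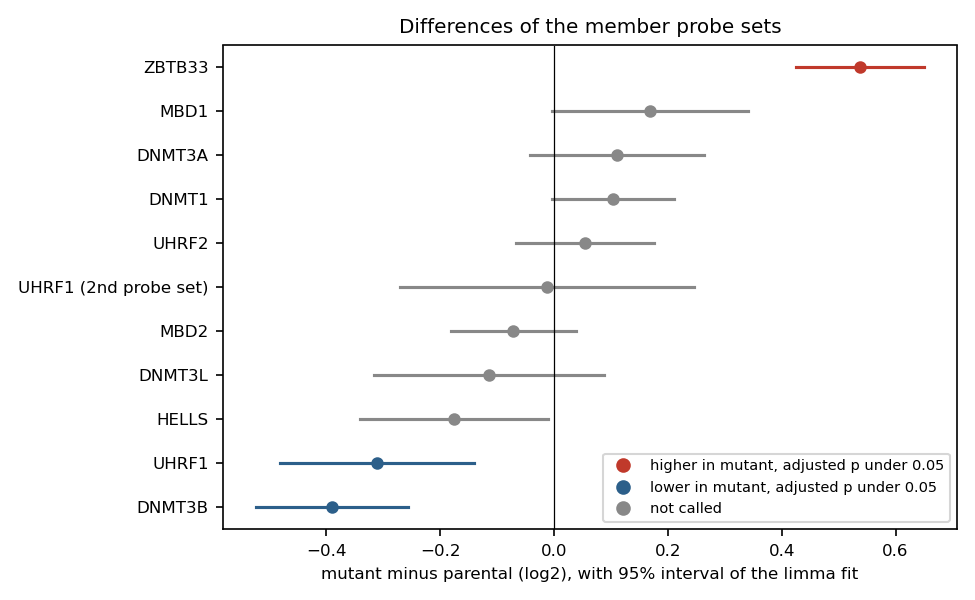
Mutant minus parental difference (log2, horizontal axis) of each member probe set, with its 95% interval from the limma fit. ZBTB33 in red at 0.54 and DNMT3B (-0.39) and UHRF1 (-0.31) in blue had an adjusted p under 0.05, and the grey probe sets did not, HELLS among them although its unadjusted interval ends just below zero.

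The promoters of UHRF1 and HELLS, whose transcription in other cells follows the E2F factors of the G1 to S transition, are shown because both genes had a difference below zero and share letters of the E2F kind. The words TTTCCCGC, TTTCGCGC, TTTGCCGC and TTTGGCGC were searched on both strands in the 250 bases before each RefSeq start (GRCh38.p14), and 2.79% of 35116 such windows held at least 1. RefSeq windows were found for 9 of the 10 members, all but DNMT3L, with 16 windows in all. The E2F-type words were present in windows of these 2 members and in no other member's. In the sequences, 5′ to 3′ on the strand of the gene, capitals mark the words, which do not overlap each other. In UHRF1 (chr19:4909251-4909500, plus strand) the word TTTCCCGC lies on the opposite strand and begins at position -14 from the start. In HELLS (chr10:94545538-94545787, plus strand) TTTGGCGC lies on the opposite strand at -76 and TTTCCCGC on the gene's strand at -8. A second UHRF1 window holds TTTCGCGC at -160.
UHRF1: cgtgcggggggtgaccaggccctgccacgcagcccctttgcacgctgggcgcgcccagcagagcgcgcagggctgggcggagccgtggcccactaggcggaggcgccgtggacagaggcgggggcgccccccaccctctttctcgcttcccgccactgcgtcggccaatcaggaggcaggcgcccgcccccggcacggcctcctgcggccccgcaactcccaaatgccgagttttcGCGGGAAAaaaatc
HELLS: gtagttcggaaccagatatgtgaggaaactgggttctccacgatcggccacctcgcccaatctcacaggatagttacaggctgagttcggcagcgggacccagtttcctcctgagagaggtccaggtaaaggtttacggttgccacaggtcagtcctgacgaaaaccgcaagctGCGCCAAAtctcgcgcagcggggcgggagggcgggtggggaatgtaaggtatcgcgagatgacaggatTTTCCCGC
These matches describe the letters only. Of the measured genes with such a word, 19.3% rose and 15.1% fell, against 15.5% and 11.8% of all measured genes with a window. Among those with a mean log2 value of at least 7 the shares were 21.4% and 16.9%, against 21.5% and 15.7%.

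S phase genes, which are transcribed together with UHRF1, HELLS and DNMT1 in cycling cells, were lower in part. Of 25 measured, 9 fell and 3 rose, with a median difference of -0.17, against 0.0034 over all genes. That is 48% called, beside 36.5% of all genes with a mean of at least 7, the class of all 25. TK1, thymidine kinase, and MCM4, a subunit of the replicative helicase, both stood at -0.88, and TYMS, thymidylate synthase, at -0.70. The cyclin E genes CCNE1 (0.27) and CCNE2 (0.26) and the ribonucleotide reductase subunit RRM1 (0.22) rose, with adjusted p-values of up to 0.118, 0.0965 and 0.0987 when 1 array was left out. The list then had 7 to 8 genes called in all, a lower count than the 12 with all arrays. PCNA, the clamp that DNMT1 binds at the replication fork, had -0.04 (adjusted p = 0.651). UHRF1 and HELLS had differences of -0.31 and -0.18, while DNMT1 had one of 0.10. The list runs from -0.88 to 0.27, a range so wide that every member but ZBTB33 lies inside it. Lying inside it therefore sets no member apart. The part of cell cycle distribution in the members' differences was not tested.

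Among the readers, ZBTB33 had the largest difference of all members. ZBTB33 is a zinc finger protein with a BTB domain that binds methylated CpG pairs and recruits corepressors (probe set 8169683, X chromosome). Its log2 values were 11.02, 10.99 and 11.04 in mutant arrays, against 10.46, 10.51 and 10.48 in parental arrays. The groups were far apart compared with their spread, with means of 11.02 ± 0.02 in mutant and 10.48 ± 0.03 in parental arrays (SD, n = 3 each). ZBTB33 was 1.45-fold higher in the mutant (difference 0.54, SE 0.05, 95% interval 0.43 to 0.65, adjusted p = 0.000762). This call held in all 18 alternatives, with adjusted p-values from 2.14e-05 to 0.0137. A difference of this size or more was found in 7.23% of all probe sets.

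The ZBTB33 promoter is shown because this gene had the largest change, and its CpG content is that of a CpG-rich start. The window (chrX:120250562-120250811, plus strand, GRCh38.p14, RefSeq) holds 24 CpG in 250 bases, against a median of 11 over all windows, and its observed over expected CpG ratio is 0.915, against a median of 0.558. Capitals mark the CpG dinucleotides.
ZBTB33: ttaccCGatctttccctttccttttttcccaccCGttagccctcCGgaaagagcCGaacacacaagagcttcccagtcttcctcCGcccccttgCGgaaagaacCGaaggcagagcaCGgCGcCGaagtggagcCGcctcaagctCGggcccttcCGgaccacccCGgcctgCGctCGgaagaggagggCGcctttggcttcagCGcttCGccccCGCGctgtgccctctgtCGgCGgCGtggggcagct
The other members' windows held 12 to 41 CpG, except the single DNMT3B window in the table, which lies at a start inside the gene and held 3. Methylation of these windows was not analysed here.

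UHRF2 carries in its promoter the palindrome CTCGCGAG, the core of a motif that ZBTB33 is known to occupy in other human cell lines, and it is shown for that reason. The palindrome reads the same on both strands, was found in 0.87% of all windows, and among the members in that of UHRF2 alone, at position -51 (chr9:6412949-6413198, plus strand). It contains no E2F-type word and overlaps none. Capitals mark it.
UHRF2: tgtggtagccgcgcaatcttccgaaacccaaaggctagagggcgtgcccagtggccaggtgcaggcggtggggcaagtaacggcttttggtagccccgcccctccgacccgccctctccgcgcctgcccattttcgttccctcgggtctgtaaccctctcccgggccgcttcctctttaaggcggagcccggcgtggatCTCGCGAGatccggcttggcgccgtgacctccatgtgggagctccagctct
UHRF2 itself had a difference of 0.05 that did not pass, beside the 0.54 of ZBTB33.

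MBD1, a methyl-CpG binding protein that recruits histone methyltransferases (probe set 8023323, chromosome 18), had log2 values of 8.90, 9.05 and 8.95 in mutant arrays and 8.73, 8.76 and 8.90 in parental arrays. Parental replicate 3 lay just above the lowest mutant array, so the groups overlapped. The difference of 0.17 (SE 0.07, 95% interval -0.0043 to 0.34) did not pass (adjusted p = 0.179). MBD2, the methyl-CpG binding subunit of a NuRD corepressor complex (probe set 8023382, chromosome 18), had 10.68, 10.64 and 10.69 in mutant arrays, against 10.75, 10.72 and 10.75 in parental arrays. The mutant arrays were all slightly lower, with a difference of -0.07 (95% interval -0.18 to 0.04, adjusted p = 0.368).

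Neighbouring genes were examined because a chromosome segment can shift as a block, and MBD1 and MBD2 lie close together on chromosome 18. Whether any block differs between the lines was not tested. Up to 20 named genes with a mean log2 value of at least 7 were taken on each side of a member, in RefSeq gene order. The MBD1 and MBD2 neighbourhoods share 31 of their 40 genes. Over all genes with a mean of at least 7, 36.5% were called. Among the neighbours the share was 25% for DNMT1 and ZBTB33, 22.5% for DNMT3B and HELLS, and 32.5% for DNMT3A and UHRF1. It was 7.5% for DNMT3L, 40% for MBD1, 45% for MBD2 and 52.9% for UHRF2. Around MBD2, 6 of 40 neighbours rose and 12 fell. Of those 12 decreases, 10 lay after MBD2 in chromosome order, where the 20 neighbours had a median difference of -0.32, against 0.15 for the 20 before it. Those decreases do not begin at MBD2, which had -0.07 itself. POLI (0.31) and C18orf54 (0.38), close after MBD2, were called higher, and most of the decreases lie from ONECUT2 (-0.47) onward. ME2 (-0.49) and MEX3C (-0.27), close before MBD2, were called lower. MBD1 at 0.17 had a neighbour median of 0.08. Around ZBTB33, 9 of 40 neighbours rose and 1 fell, with a median of 0.07, so ZBTB33 stood 0.47 above its neighbours' median. Its neighbours LONRF3 (0.92) and C1GALT1C1 (0.64) were called with larger increases than its own. Around DNMT3B, 4 rose and 5 fell with a median of 0.03, which DNMT3B undershot by 0.42 (-0.42). Its neighbours ID1 (-0.73) and BCL2L1 (-0.61) were called with larger decreases than its own. UHRF1 had a neighbour median of -0.10, with 5 higher and 8 lower, and HELLS one of 0.07, with 9 higher and 0 lower. The UHRF2 neighbourhood, of which 34 genes could be taken, had 11 higher and 7 lower (median 0.09). DNMT1, DNMT3A and DNMT3L had neighbour medians of -0.02, 0.05 and -0.03. These small medians move with single arrays. That of DNMT3L was above zero without mutant replicate 1 (0.015), and leaving out 1 array gave -0.04 to -0.01 for DNMT1, 0.05 to 0.08 for DNMT3A, 0.01 to 0.03 for DNMT3B, -0.11 to -0.06 for UHRF1, 0.05 to 0.12 for UHRF2 and 0.03 to 0.09 for HELLS.

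**Figure D3:**
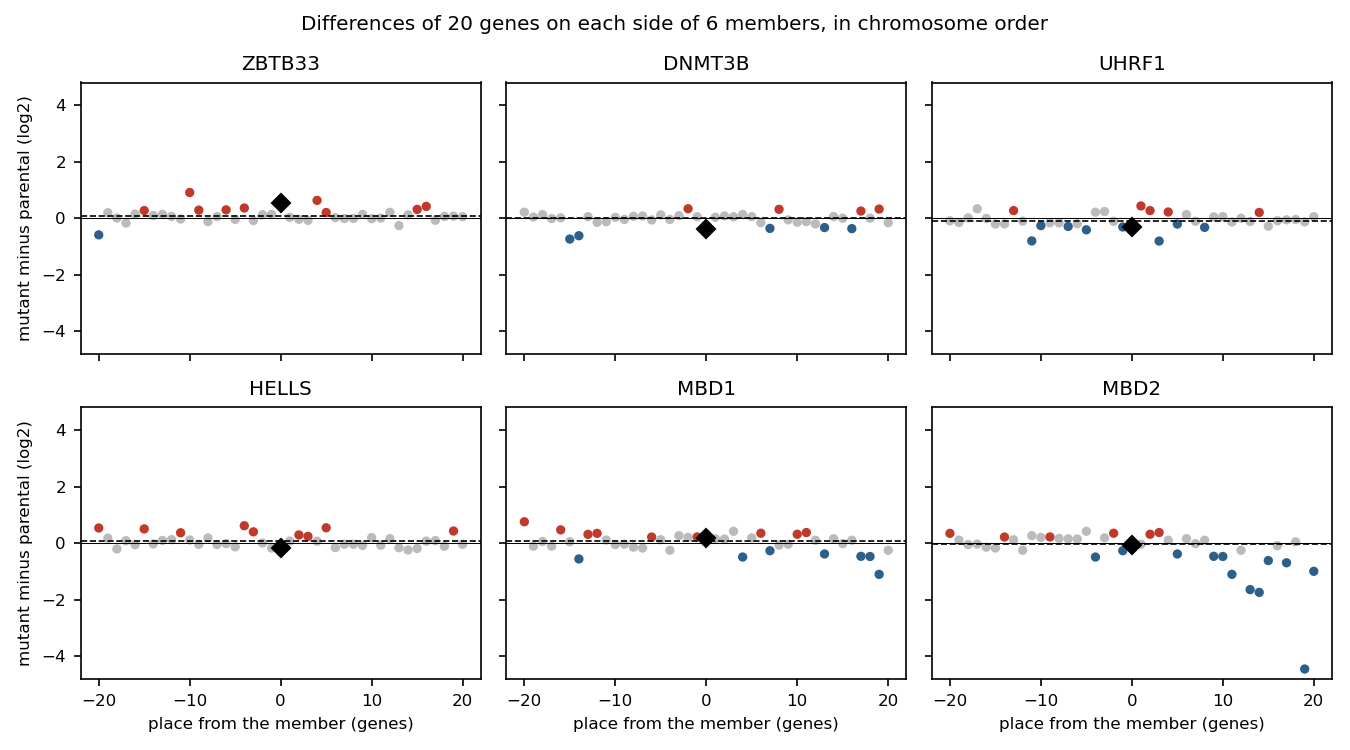
Mutant minus parental difference (log2, vertical axis) of up to 20 genes on each side of 6 members in chromosome order (horizontal axis, place in genes), with called increases in red, called decreases in blue and other genes in grey. The black diamond is the member and the dashed line the median of its neighbours. ZBTB33 stands above and DNMT3B below the medians of their neighbours, 0.07 and 0.03, while single neighbours of each lie farther out in the same direction. Most called decreases after MBD2 lie several genes away from it, with a lowest value of -4.46.

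By profile over the 6 arrays, taken as deviations from each gene's parental mean, the genes closest to ZBTB33 among 11207 with a mean of at least 7 were LMF1, LRIF1 and CFAP263. Their Euclidean distances were 0.04, 0.04 and 0.05, and their differences 0.52, 0.54 and 0.53. The genes closest to DNMT3B were AARS1, TNIK and DENND4C, at distances of 0.02, 0.03 and 0.04 and differences of -0.39, -0.37 and -0.41. With 6 arrays in 2 groups this measure mostly reflects the size of the group difference.

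Arrays of the same group correlated at 0.995 to 0.996 over all probe sets and arrays of different groups at 0.988 to 0.989. Of the 12 colorectal epithelium markers 0 rose and 4 fell in the mutant. That is 33.3% called, beside 25.9% of all genes. It was 36.5% for genes with a mean of at least 7 and 9.52% for those under 7. EPCAM, the epithelial adhesion molecule, had a mean log2 value of 12.33 in mutant and 12.15 in parental arrays. The summed log2 value of these 12 markers was 98.99 to 100.60 in mutant arrays and 102.90 to 103.22 in parental arrays. CDH1, which encodes E-cadherin, led the decreases at -1.36 (SE 0.08, adjusted p = 0.000204), before the keratin genes KRT18 (-0.88) and KRT8 (-0.53). Defining markers of leukocytes (PTPRC, 3.73 in mutant and 3.72 in parental arrays), fibroblasts (DCN, 3.49 in both) and endothelium (PECAM1, 4.93 in mutant and 5.00 in parental arrays) were dim in both groups. These are single genes, and the full lists are less clear-cut. A mean under 7 was found for 6 of 12 epithelium, 8 of 11 leukocyte, 10 of 12 fibroblast and 8 of 10 endothelial markers. Of 12 fibroblast markers, ACTA2 (1.30) and PDGFRB (0.27) rose and 0 fell, with a summed log2 value of 66.96 to 68.01 in mutant and 66.43 to 66.72 in parental arrays. Among 11 leukocyte markers CD8A alone changed (0.52), and 0 of 10 endothelial markers did. The shares called were 16.7% of the fibroblast and 9.09% of the leukocyte markers. With 1 array left out the adjusted p reached 0.0968 for PDGFRB and 0.0580 for CD8A. The part of these shifts in the members' values was not tested.

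The partners through which the readers repress went both ways. Of 21 measured corepressor partners, 3 rose and 5 fell, with a median of 0.04. The share called, 38.1%, was near the 36.5% of genes with a mean of at least 7, and with 1 array left out 5 to 7 were called, 5 of them without mutant replicate 1 or 2 or parental replicate 2 or 3. MTA1, a subunit of the NuRD complex that MBD2 joins, had log2 values of 9.01, 9.11 and 9.04 in mutant arrays and 10.15, 10.31 and 10.29 in parental arrays. Its change of -1.20 on the log2 scale (SE 0.06, adjusted p = 0.000156) was the largest in this list. The deacetylase genes HDAC1 and HDAC2, shared by NuRD and other corepressors, fell by 0.65 and 0.29. The NuRD subunit genes MTA2, a relative of MTA1, and CHD4, the complex's remodeller, rose by 0.36 and 0.31, and CDK2AP1, of which leaving out 1 array always ended the call (adjusted p = 0.0610 to 0.130), by 0.22. MBD3, which takes the place of MBD2 in a separate NuRD complex, had 0.16 (adjusted p = 0.203), and 0.10 without mutant replicate 3.

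Of 23 measured partners and regulators of the methyltransferases 6 rose and 5 fell, with a median of -0.0004, a share of 47.8% called, beside 36.5% of genes with a mean of at least 7. With any 1 array left out, 4 to 5 of them were called. The heterochromatin protein gene CBX5 rose by 0.95 (SE 0.06, adjusted p = 0.000215), with 12.48, 12.46 and 12.57 in mutant arrays, against 11.55, 11.51 and 11.60 in parental arrays. EHMT1, an H3K9 methyltransferase on chromosome 9, rose by 0.59, and SETD2, which writes the H3K36 mark read by the de novo enzymes, by 0.34. CDCA7, the activator of HELLS, fell by 0.29 (adjusted p = 0.0412), NSD1, another H3K36 methyltransferase, by 0.24, and the replication ligase gene LIG1, whose product binds UHRF1, by 0.22. CDCA7 passed the test where HELLS, at -0.18, did not, and the difference between them was not tested. The calls of NSD1 and LIG1 were lost whichever array was left out (adjusted p = 0.0553 to 0.143 and 0.0603 to 0.0958), and that of CDCA7 in 5 of the 6 such fits (up to 0.116). TRDMT1, a relative of the DNMT enzymes that methylates transfer RNA, had -0.18 (adjusted p = 0.194), and -0.10 without mutant replicate 3.

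The opposing enzymes, those of DNA demethylation and repair of its products, had 3 of 10 genes higher and 0 lower, with a median of 0.05. All 10 had a mean of at least 7, and the 30% called lies below the 36.5% of all such genes, so the count is no result about these enzymes. GADD45A, a stress-induced gene linked to demethylation, rose by 0.48, the thymine glycosylase MBD4, itself a methyl-CpG binder, by 0.26, and the repair scaffold XRCC1 by 0.19. With 1 array left out, 1 to 2 genes of this list were called, and the adjusted p reached 0.0760 for MBD4 and 0.0987 for XRCC1. TET1 and TET3, which oxidise methylcytosine, had 0.25 and 0.04 (adjusted p = 0.197 and 0.774). TET1 passed without mutant replicate 3 (0.36, adjusted p = 0.0276), and TET3 ran from 0.0017 without parental replicate 1 to 0.08 without mutant replicate 1. TET2 had -0.27 on its main probe set (adjusted p = 0.105) and -0.23 on its other (adjusted p = 0.0276). Its main probe set passed without parental replicate 1 (-0.35, adjusted p = 0.0403). Of 16 further methyl-CpG, CpG and MBD-domain proteins, 2 rose and 3 fell, 31.2% called in all. Beside it stand 25.9% of all genes and 36.5% of those with a mean of at least 7, so this count is no result either. Of the 16, 2 had a mean under 7. KDM2A, a demethylase that binds unmethylated CpG, rose by 0.29, along with MBD4. CXXC5 and the dim SETDB2 and CXXC4 fell, with -0.56, -0.72 and -0.26; for CXXC4 the adjusted p reached 0.139 with 1 array left out, and 3 to 4 genes of this list were then called.

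**Figure D4:**
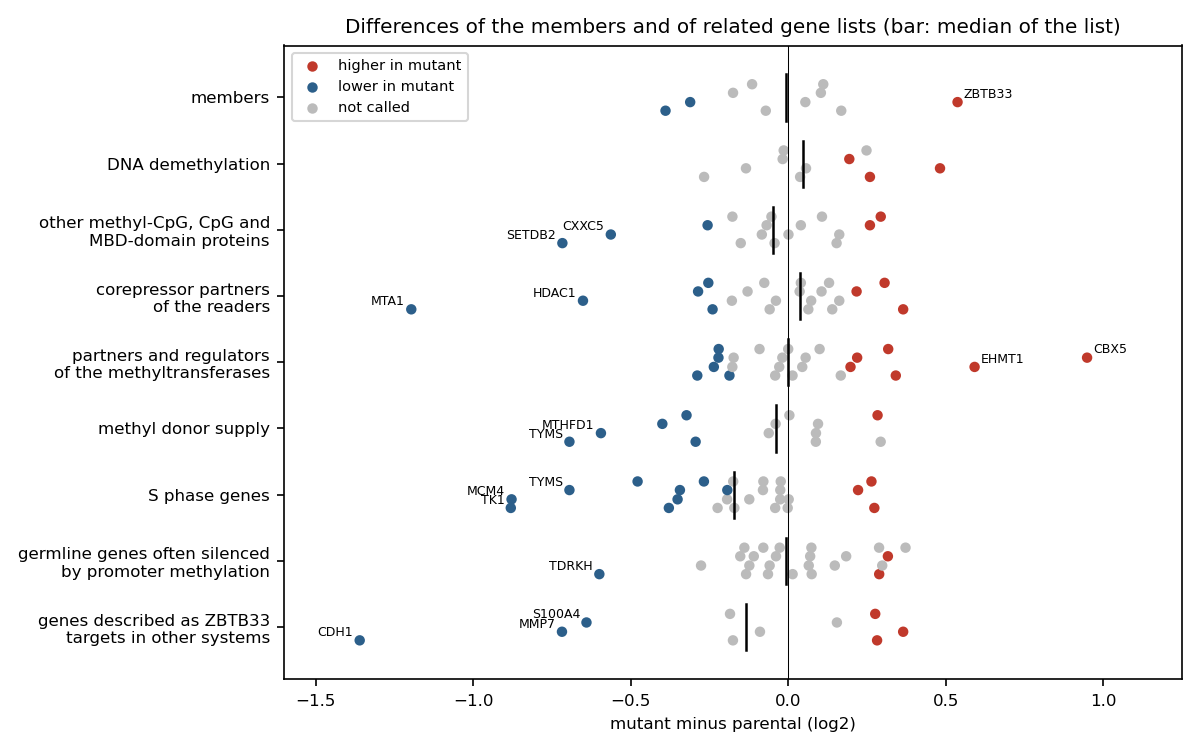
Mutant minus parental difference (log2, horizontal axis) of the 10 members and of the genes of 8 related lists, each point 1 gene on its main probe set, red or blue where called higher or lower in the mutant, with a black bar at the median of each list. The members lie between -0.39 and 0.54, while MTA1 (-1.20), CDH1 (-1.36) and CBX5 (0.95) lie farther out; calls of at least 0.5 in size are named.

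The methyl donor supply list holds folate and methionine cycle genes around S-adenosylmethionine, which the methyltransferases use, and not only genes that make it. Of 13 measured, 1 rose and 5 fell, a share of 46.2% called. Beside it stand 25.9% of all genes and 36.5% of genes with a mean of at least 7. Of the 13, 3 had a mean under 7. TYMS, counted also in the S phase list, had -0.70. MTHFD1, a folate enzyme, and MAT2B, a subunit of methionine adenosyltransferase, had -0.60 and -0.40, and SHMT1 had 0.28 (adjusted p = 0.0422, and up to 0.129 with 1 array left out). Of 24 germline genes often silenced by promoter methylation, 2 rose and 1 fell, a share of 12.5% called. MAGEA4 (0.32) and TEX19 (0.29) rose and TDRKH (-0.60) fell, and 1 to 3 genes were called with 1 array left out, when the adjusted p reached 0.121 for MAGEA4 and 0.132 for TEX19. Of these 24 genes, 20 had a mean log2 value under 7, a class of which 9.52% of all genes were called. Of 10 genes described as ZBTB33 targets in other systems, 3 rose and 3 fell, a share of 60% called. Beside it stand 25.9% of all genes and 36.5% of those with a mean of at least 7. Of the 10, 2 had a mean under 7. CDH1 (-1.36), MMP7, a matrix metalloproteinase (-0.72), and S100A4 (-0.64) were lower. MMP7 is dim, with means of 4.53 in mutant and 5.25 in parental arrays, in the range where RMA compresses differences. MTA2 (0.36), CCND1, cyclin D1 (0.28), and CDKN2A (0.28) were higher, beside the 0.54 of ZBTB33. With 1 array left out 3 to 5 of the 10 were called, and the adjusted p reached 0.0836 for MMP7, 0.0545 for CCND1 and 0.0732 for CDKN2A.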

How the data were processed

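The deposited log2 values, 1 per probe set and array, were made by the authors using RMA and Partek software, per the submitters' processing notes; no version is given. RMA equalises the distributions of the arrays and compresses differences of dim probe sets. Array medians were 6.88 to 6.93, and no normalization was added.

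The platform annotation gives 19460 of 33297 probe sets exactly 1 gene symbol, 1754 several and 12083 none. Symbols were updated through RefSeq gene IDs (GRCh38.p14; 19429 found), giving 18417 genes. Where a gene has several probe sets, the brightest on average is its main one. Mutant minus parental differences were fitted over all probe sets with limma 3.58.1 (linear model with moderated variance, two-sided tests; 4 residual and 2.16 prior degrees of freedom) in R 4.3.3. Benjamini-Hochberg adjustment covered every probe set, with a threshold of 0.05. Intervals are 95% intervals of that fit. The fit was tested on simulated arrays. Arrays have no read depth; their number limits the precision.

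The members and lists were chosen with earlier results of these data known. The naming rule took all 10 members and up to 3 called genes per list and direction. It also took TET1, TET2, TET3, MBD3, MBD4 and TRDMT1, and the 3 genes nearest in profile to the members with the largest called increase and decrease. PCNA, some neighbouring genes and the markers EPCAM, PTPRC, DCN and PECAM1 are named outside this rule. Some further genes of the lists are not reported here. Same-numbered mutant and parental arrays did not deviate together (correlations of -0.013 to 0.043 over probe sets), so the numbers were not used as pairs. No label describes separate cultures, and the p-values may therefore reflect technical spread only. Alternatives changed the normalization, filter, variance model, weights, minimum fold, probe sets and arrays used.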

Additional observations from a re-analysis of the deposited data

How the results depend on the processing

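No member's difference changed sign in any alternative, and ZBTB33 stayed called in all 18. Requiring a fold of 1.2 in the test, stricter by construction, left 1743 probe sets and 1 changed member. DNMT3B (-0.39, adjusted p = 0.328) and UHRF1 (-0.31, adjusted p = 1) were then not called. Under it 0 demethylation genes were called, 1 each of the germline and ZBTB33 target lists, 2 each of the other methyl-CpG, corepressor, methyltransferase partner and methyl donor lists, and 4 S phase genes. With the replicate number as a block 4365 probe sets and 2 members were called. UHRF1 (-0.31) then had an adjusted p of 0.0634, and the block called 0 demethylation, 3 other methyl-CpG, 5 corepressor, 4 methyltransferase partner and 7 S phase genes. The numbers do not pair the arrays. UHRF1 was also lost with the mean of its probe sets, of which the second is dim (-0.16), and with an ordinary linear model (-0.31, adjusted p = 0.0596). DNMT1 (0.10) gained a call with an intensity trend and with the ordinary model, and HELLS (-0.18) among probe sets of mean at least 7, where fewer are tested. Equal array medians called 6 methyltransferase partners, and array weights and the ordinary model called 1 germline gene each. The causes were not tested. Leaving out each array gave 4037 to 4644 probe sets, 2 to 3 members, and UHRF1 from -0.34 to -0.25. The lists then had 1 to 2 demethylation, 3 to 4 other methyl-CpG, 5 to 7 corepressor, 4 to 5 methyltransferase partner, 5 to 6 methyl donor, 7 to 8 S phase, 1 to 3 germline and 3 to 5 ZBTB33 target genes called. The count of probe sets was lowest without mutant replicate 2 (4037) and without parental replicate 2 (4109), against 6166 with all arrays. Beside the members, the naming rule gave 52 genes, of which 47 were called. Of those 47, 18 stayed called in every alternative, and none of the 52 changed sign. Genes named outside the rule are not in these counts.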

Other observations

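Genes whose promoter window holds the palindrome CTCGCGAG formed no list above. Of 225 such genes that were measured, 55 rose and 27 fell in the mutant, 24.4% and 12%. The shares were 15.5% and 11.8% of all 14237 measured genes with a window. Among genes with a mean log2 value of at least 7, 52 of 193 with the palindrome rose (26.9%) and 24 fell (12.4%), against 21.5% and 15.7% of 9052 with a window. The median difference was 0.08 in those 193 genes and 0.03 in the 9052. These counts were taken after the ZBTB33 value was known and are given without a test.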
